A study of Mus musculus with 3 samples.

Results

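The 8 genes described here are 5 ligands of the tumour necrosis factor (TNF) superfamily, Tnf, Lta, Ltb, Tnfsf9 and Tnfsf13b, and 3 receptors, Tnfrsf1a, Tnfrsf1b and Tnfrsf11a. They were taken by name, and all 8 matched among 22028 annotated protein-coding genes. The cells were C57BL/6J bone marrow-derived macrophages that had received 100 ng/ml of Lipid A, the TLR4-binding moiety of bacterial lipopolysaccharide, for 15 min. The RNA came from the chromatin fraction, which is rich in transcripts still attached to the template, and was sequenced after removal of ribosomal RNA. The 3 libraries are replicates 1, 2 and 3 of 1 group, so no untreated value stands beside any level given here and none of them can be read as induction. The labels name 1 donor and a separate biosample for each library, and they do not give the age or sex of the mice. Nothing in them says that the cultures came from separate animals, so each SD measures the spread between these libraries, which may be technical.

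TNF superfamily ligands are mostly made as trimeric membrane proteins, some of which are cut from the cell surface, and they bind receptors with cysteine-rich repeats outside the cell. Receptors with a death domain, such as that encoded by Tnfrsf1a, recruit adaptors that lead to NF-kB, to MAP kinases or to cell death. Many of the other receptors bind TRAF proteins directly. Macrophages are a main source of TNF after contact with bacterial products, and Tnf is a textbook early target of TLR4 signalling.

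Depth differed between libraries, at 10974934, 21376404 and 14376665 expected counts in replicates 1, 2 and 3. The RNA amount at the start of library preparation also differed, at 1 µg, 250 ng and 500 ng, per the labels. All 10 macrophage markers examined reached 1 TPM (transcripts per 1000000, a length-corrected level) in each library, among them Csf1r and Adgre1, with a summed level of 530 to 888 TPM. In the gene table no marker on the lists for T cells, NK cells, B cells, neutrophils, dendritic cells or osteoclasts did so, beside 42.4% of all protein-coding genes. Zbtb46, of the dendritic cell list, stood at 1.67, 0.71 and 1.59 TPM in replicates 1, 2 and 3. In a second deposited quantification Zbtb46 reached 1 TPM in each library, with 3.06 TPM on average. In bulk RNA, fewer cells of a type and less RNA per cell cannot be told apart.

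Tnf, Lta and Ltb lie side by side on chromosome 17 of mm10, within 10913 bp. In the GENCODE M21 annotation Tnf spans chr17:35199381-35202007 on the minus strand, and Lta spans chr17:35203165-35205351 on the same strand, 1157 bp upstream of it. Ltb spans chr17:35194439-35196320 on the plus strand and ends 3060 bp from the end of Tnf. The promoter windows of these neighbours are shown because the genes share a locus and differed most in level, and that of Tnfrsf11a because it had the highest mean level of the 3 receptors described. Each is the stretch before the RefSeq start site on GRCm38.p6, 5′ to 3′ on the gene's strand, of at most 250 bases and cut where the GENCODE gene begins. Capitals mark matches to TATAAA on the gene's strand, to GGGCGG (a GC box) on either strand, and to the NF-kB consensus on either strand. The windows are chr17:35202008-35202257 (minus), chr17:35205352-35205601 (minus), chr17:35194257-35194438 (plus) and chr1:105780473-105780717 (plus).
Tnf: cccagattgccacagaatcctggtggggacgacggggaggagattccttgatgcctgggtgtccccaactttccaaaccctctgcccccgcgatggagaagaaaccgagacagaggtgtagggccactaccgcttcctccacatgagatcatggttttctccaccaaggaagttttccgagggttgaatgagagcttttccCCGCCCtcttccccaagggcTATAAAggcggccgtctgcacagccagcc
Lta: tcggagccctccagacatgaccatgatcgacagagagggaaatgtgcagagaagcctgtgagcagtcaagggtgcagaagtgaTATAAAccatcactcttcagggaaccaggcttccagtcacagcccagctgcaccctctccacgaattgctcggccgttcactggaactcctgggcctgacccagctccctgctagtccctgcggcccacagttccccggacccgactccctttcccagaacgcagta
Ltb: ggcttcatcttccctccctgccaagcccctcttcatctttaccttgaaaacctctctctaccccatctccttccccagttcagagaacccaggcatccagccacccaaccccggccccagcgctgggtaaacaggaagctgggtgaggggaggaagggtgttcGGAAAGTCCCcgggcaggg
Tnfrsf11a: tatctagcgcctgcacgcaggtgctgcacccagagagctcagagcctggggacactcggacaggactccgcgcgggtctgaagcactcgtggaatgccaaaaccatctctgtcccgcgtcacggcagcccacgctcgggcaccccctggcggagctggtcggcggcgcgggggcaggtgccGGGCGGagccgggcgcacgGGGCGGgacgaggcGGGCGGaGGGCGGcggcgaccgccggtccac

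In the Tnf window TATAAA began at position -29 and a GC box at -49, counted from the start site. In the Lta window TATAAA began at -167, and in the Ltb window the NF-kB consensus began at -87. The Tnfrsf11a window had no TATAAA and 4 GC boxes, and that of Tnfrsf1b, not shown, had no TATAAA and 2 GC boxes. Of 32851 RefSeq promoter windows of 250 bases, 7.59% held TATAAA, 32.7% a GC box and 7.25% the NF-kB consensus. Matches to TGANTCA (AP-1, in 6.75% of all windows) and TGACGTCA (cAMP response element, in 1.55%) were searched on both strands. The 4 windows printed above held neither. Of the windows not shown, 1 of Tnfsf13b held TGANTCA, beginning at -127, and none held TGACGTCA. Of the 8 genes, 7 had a window in the RefSeq table. A match is a string of letters and not a measured binding site.

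Of the 8 genes, 4 reached 1 TPM in each library, the ligand Tnf and the receptors Tnfrsf1a, Tnfrsf1b and Tnfrsf11a, against 42.4% of all protein-coding genes. Tnfsf9 missed this level through 1 library, and Tnfsf13b, Ltb and Lta were below it in each. Mean TPM was at least 1 for 5 of the 8, Tnfsf9 included, against 46.5% of protein-coding genes. TPM is corrected for transcript length, and on that basis levels of different genes are set side by side. Such comparisons also depend on how reads are assigned to isoforms. The second deposited quantification gave 1.204 times the mean TPM of the gene table for Tnfsf9 and 2.52 times for Tnfrsf1a. Whether the chromatin fraction shifts levels between genes was not tested. With 3 libraries of 1 group the smallest p that an exact two-sided sign-flip test allows is 0.25, and differences between genes are therefore given as values per library without a test.

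**Figure D1:**
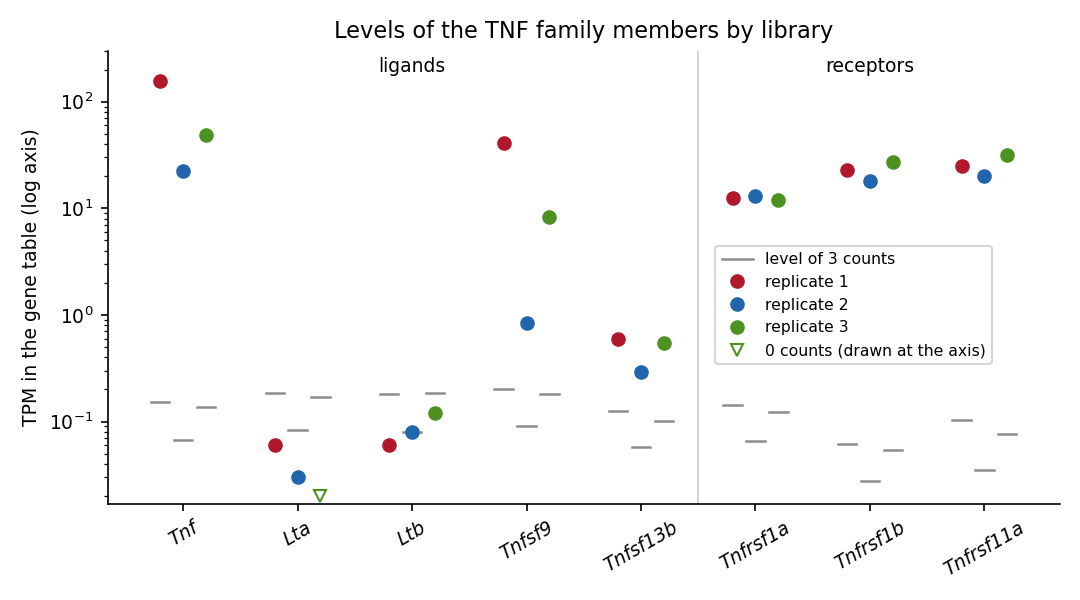
TPM of the 5 ligands and 3 receptors (log axis), 1 point per library, with a grey line at the level that 3 counts give in that library. Tnf and Tnfsf9 were spread widely, the 3 receptors lay close together, and Lta and Ltb were at or under the 3-count line.

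Tnf, the founding ligand of the family, was the highest of the 8 genes in each library. Its level was 156 TPM in replicate 1, 22.6 TPM in replicate 2 and 48.6 TPM in replicate 3 (75.8 ± 70.8, SD, n = 3), from 3048, 1000 and 1062 expected counts. Replicate 1 was high and replicate 2 low, with an SD close to the mean. Among protein-coding genes Tnf ranked 196th in replicate 1, 1833rd in replicate 2 and 1236th in replicate 3. All of its counts in the gene table's companion transcript table were given to 1 isoform, Tnf-201.

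Lta encodes lymphotoxin alpha, which forms a soluble trimer that binds the TNF receptors and also joins lymphotoxin beta, the product of Ltb, in a membrane complex recognised by the receptor Ltbr. Lta had 1, 1 and 0 counts in replicates 1, 2 and 3. Ltb had 1, 3 and 2 counts. Both neighbours of Tnf thus stood at or below the floor of 3 counts in each library. Summed over the libraries and taken per transcript length, Tnf was 2091 times Lta (95% counting interval 578 to 17269, from 5110 and 2 counts). Against Ltb the ratio was 689 (95% counting interval 316 to 1878, from 5110 and 6 counts). Replicate 1 holds 3048 of the Tnf counts, and without it the ratio to Ltb was 326 (139 to 1004). Without replicate 2 it was 1086, and the ratio to Lta 3366. These intervals cover counting error only. The second quantification, a further deposited table, also gave few counts, 4, 2 and 1 for Lta and 2, 4 and 3 for Ltb. Lta and Ltb are best known from lymphocytes. The T cell list summed to 0.08, 0.26 and 0.51 TPM in replicates 1, 2 and 3, with Cd3e and Cd3g at 0 counts, and the B cell list to 0.09, 0.07 and 0.13 TPM. In the second quantification 2 of the 5 T cell markers reached 1 TPM in each library, and Cd3d stood at 16.1 TPM on average. The share of all protein-coding genes at that level was not computed there.

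Tnfsf9 encodes 4-1BB ligand, a costimulatory ligand of T cells that macrophages can make. It lies at chr17:57105325-57107757 on the plus strand, outside the Tnf cluster. Its level was 40.6 TPM in replicate 1, 0.84 TPM in replicate 2 and 8.31 TPM in replicate 3 (16.6 ± 21.1, SD, n = 3), from 599, 28 and 136 counts. The order of the libraries was that of Tnf, with a wider spread. Tnf exceeded Tnfsf9 3.85, 26.9 and 5.85 times in replicates 1, 2 and 3, so the direction held in each library while the ratio did not. The antisense lincRNA Gm11110 overlaps the first 618 bp of Tnfsf9 and had 34, 22 and 29 counts. Whether counting used the strand is not given in the sources used here, so reads in the overlap cannot be assigned with certainty. In replicate 2 of the gene table the counts of both genes were of like size. The second quantification gave Gm11110 111, 99 and 130 counts and Tnfsf9 853, 44 and 223, so Gm11110 was there the higher in replicate 2.

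Tnfsf13b encodes BAFF, a survival factor of B cells made by myeloid cells. It spans chr8:10006467-10039072 on the plus strand and had 14, 15 and 16 counts, above the floor in each library. These gave 0.59, 0.29 and 0.54 TPM (0.473 ± 0.161, SD, n = 3), a low level that varied little compared with Tnf. Isoforms annotated as retained introns took 66.6% ± 18.7 of its TPM in the first quantification and 46.3% ± 10.04 in the second (SD, n = 3). The former share rests on fewer than 10 counts per library, and the median over genes with such an isoform, given with Tnfrsf11a, was 47.6%. The TEC gene Gm44789 lies antisense within Tnfsf13b and had 12, 6 and 6 counts. In the second quantification it had 86.2, 117 and 98.6 counts, beside 26, 33.0 and 26.0 for Tnfsf13b. Since strand use in counting is not given, reads in this overlap cannot be assigned with certainty, and the level and shares of Tnfsf13b carry that limit.

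Tnfrsf1a encodes TNFR1, the receptor with a death domain that is found on most cell types. It lies at chr6:125349362-125362484 on the plus strand, and its level was 12.4, 12.95 and 12.0 TPM in replicates 1, 2 and 3 (12.4 ± 0.486, SD, n = 3). The 3 libraries hardly differed before rescaling. Tnfrsf1b encodes TNFR2, which lacks a death domain, responds best to membrane-bound TNF and is found mainly on immune and endothelial cells. It spans chr4:145213463-145246870 on the minus strand. Its level was 23.1, 18.03 and 26.95 TPM (22.7 ± 4.47, SD, n = 3). Tnfrsf1b exceeded Tnfrsf1a 1.86, 1.39 and 2.25 times, the same direction in 3 of 3 libraries of the gene table. In the second quantification the direction held in 2 of 3. In replicate 2 Tnfrsf1b was there at 31.1 TPM and Tnfrsf1a at 33.5 TPM.

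Tnfrsf11a encodes RANK, the receptor for RANK ligand through which macrophage precursors are driven to become osteoclasts. It spans chr1:105780718-105847981 on the plus strand, and its level was 24.7, 20.0 and 31.3 TPM (25.3 ± 5.70, SD, n = 3). Tnfrsf11a stood above Tnfrsf1b by only 1.07, 1.11 and 1.16 times, so the order of these neighbours rests on small differences that were smaller than the spread of either gene between libraries. In the second quantification the order of their means turned (47.5 TPM for Tnfrsf11a, 52.4 TPM for Tnfrsf1b) through replicate 1, where Tnfrsf1b stood at 79.5 TPM and Tnfrsf11a at 47.5 TPM. In replicates 2 and 3 of that table Tnfrsf11a stayed the higher. The osteoclast markers summed to 2.59, 1.31 and 1.68 TPM, led by Ctsk at 1.16 TPM on average, with Ocstamp at 0 counts. The second quantification placed 3 of these 5 markers at 1 TPM or more in each library, where the share of all protein-coding genes was not computed. Tnfsf11, the gene for RANK ligand, had 0, 2 and 0 counts.

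Tnf was above each of the 3 receptors in each library, but the margin varied. It exceeded Tnfrsf11a 6.32 times in replicate 1, 1.13 times in replicate 2 and 1.55 times in replicate 3. In the second quantification Tnf (39.4 TPM) and Tnfrsf11a (39.8 TPM) were level in replicate 2. Tnfsf9 lay above Tnfrsf1a in replicate 1 and below it in replicates 2 and 3. In order of mean TPM the 8 genes ran Tnf, Tnfrsf11a, Tnfrsf1b, Tnfsf9, Tnfrsf1a, Tnfsf13b, Ltb and Lta. The steps from Tnfrsf1a down to Tnfsf13b and from Tnfsf13b down to Ltb held in each library and were larger than the SD of either gene. The other steps were smaller than the SD of at least 1 of the neighbours or, from Ltb to Lta, lay within the floor. Of these, the steps from Tnf to Tnfrsf11a and from Tnfrsf11a to Tnfrsf1b also held in each library of the gene table.

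To compare the libraries, TPM was rescaled so that the protein-coding genes summed to the same total in each, since this total was 238925, 166664 and 253110 TPM in replicates 1, 2 and 3. After rescaling Tnf stood at 144, 29.8 and 42.2, a ratio of highest to lowest library of 4.82. Tnfsf9 stood at 37.3, 1.11 and 7.21, a ratio of 33.7. The ratio was 1.64 for Tnfrsf1a, 1.12 for Tnfrsf1b and 1.196 for Tnfrsf11a, beside a median of 1.49 over 10251 protein-coding genes with a mean of at least 1 TPM. Counts scaled by TMM (trimmed mean of M values), TMM without a filter or DESeq2 size factors gave Tnfrsf11a ratios of 1.68, 1.71 and 1.76. Tnfrsf1b reached at most 1.26 under these scalings, for which no median over all genes was computed. The second quantification gave 1.43 for Tnfrsf11a and 1.59 for Tnfrsf1b. Under each of these settings, and in the gene table without rescaling, the ratios of Tnf (at least 3.44) and Tnfsf9 (at least 28.97) were larger than that of any of the 3 receptors (at most 1.84). The second quantification without rescaling gave 2.56 for Tnfrsf1b, beside 5.87 for Tnf and 52.5 for Tnfsf9. Of the 10251 genes, 18.8% had a ratio of at least 2, and 2.41% had replicate 1 at least 2 times the mean of the other replicates. Of the 5 genes described here at that level, 2 were among the latter, Tnf (3.99 times) and Tnfsf9 (8.97 times). None of the 2 other ligands and 12 other receptors of the family with a mean of at least 1 TPM was. The receptors were at 0.830 (Tnfrsf1a), 0.899 (Tnfrsf1b) and 0.849 times (Tnfrsf11a). Only 33 of these genes had a larger SD than Tnf on the log2(rescaled TPM + 1) scale, and 3 had a larger SD than Tnfsf9.

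**Figure D2:**
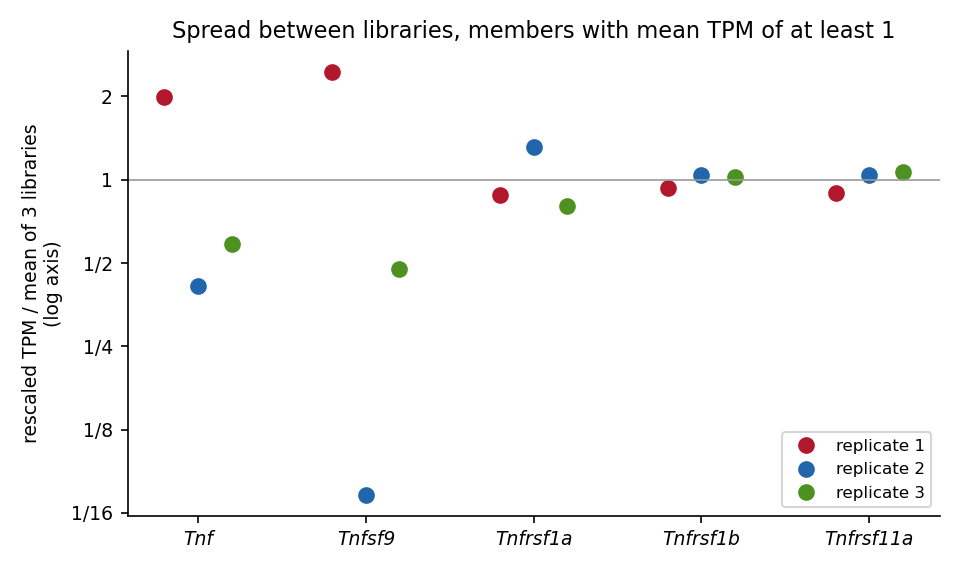
Rescaled TPM of each library divided by the mean of the 3 libraries (log axis), for the 5 genes with a mean of at least 1 TPM. Replicate 1 was above the mean and replicates 2 and 3 below it for Tnf and Tnfsf9, whereas the points of Tnfrsf1b and Tnfrsf11a lay near 1 under this scaling.

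The order of Tnf and Tnfsf9, replicate 1 above replicate 3 above replicate 2, was also the order of the RNA amount at the start, and 29% of the 10251 genes had that order. Depth ran the other way, with the most counts in replicate 2. The part of either in the spread of Tnf was not tested. On the log2(rescaled TPM + 1) scale Tnf in replicate 1 was above the mean of the other libraries by 1.99. The other ways of scaling and the second quantification gave 1.73 to 2.20, and leaving out replicate 2 or replicate 3 gave 1.74 and 2.23.

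Genes with the deviations most like those of Tnf were sought among 6759 protein-coding genes with a mean of at least 5 TPM and at least 50 counts in each library, by the root mean square difference over the 3 libraries in log2(rescaled TPM + 1). The nearest were Il10, an anti-inflammatory cytokine, at 0.0110, Icam1, an adhesion molecule, at 0.0738, and Irf1, an interferon regulatory factor, at 0.0905. Irf1 stood at 622, 79.2 and 175 TPM in replicates 1, 2 and 3, and Il10 at 28.3, 3.69 and 8.21 TPM. For Tnfrsf11a the nearest were Mnt (0.000716), Unc50 (0.00276) and Eps15l1 (0.00453). Likeness over 3 libraries is a description of these libraries only.

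Much of the TPM of Tnfrsf11a was assigned to short isoforms. Whether reads of unspliced transcripts still attached to the template were among those assigned was not tested. The annotation holds 1 protein-coding isoform of 5027 bases, Tnfrsf11a-201, and 2 retained-intron isoforms of 611 and 1041 bases. The retained-intron isoforms took 64.9%, 50.7% and 54.2% of the gene's TPM in replicates 1, 2 and 3 (56.6% ± 7.37, SD, n = 3), but 15.4% ± 4.43 of its expected counts, since TPM divides by length. In the second quantification they took 45.4% ± 10.2 of the TPM. Among 6506 protein-coding genes with a mean of at least 1 TPM and an annotated isoform of this type, the median share was 47.6%, and 34.5% of these genes had a higher share than Tnfrsf11a.

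Tnfrsf11a-201 alone stood at 8.68, 9.84 and 14.3 TPM. The full-length isoform of Tnfrsf1b, Tnfrsf1b-201, stood at 23.1, 17.01 and 26.95 TPM, and that of Tnfrsf1a, Tnfrsf1a-201, at 8.62, 8.34 and 8.69 TPM. By these isoforms of the first quantification Tnfrsf1b was the highest receptor in each library and the order of Tnfrsf11a and Tnfrsf1b turned, with a difference of -0.97 ± 0.30 on the log2(TPM + 1) scale against 0.15 ± 0.06 for the whole genes (SD, n = 3). Tnfrsf11a and Tnfrsf1a were then nearly level in replicate 1. In the second quantification Tnfrsf11a-201 stood higher, at 25.7 TPM on average, and in replicate 2 it was above Tnfrsf1b-201 (26.0 and 22.8 TPM), so Tnfrsf1b led in 2 of 3 libraries there.

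Tnfrsf1a-201 took 68.8% ± 4.10 of the TPM of its gene in the first quantification (SD, n = 3) and 35.6% ± 3.53 in the second, where it was not the leading isoform. In the first, the retained-intron isoform took 11.0% ± 4.43, a lower share than in 94.2% of the 6506 genes. The assignment between isoforms differed most between the quantifications for transcripts annotated as targets of nonsense-mediated decay. Tnfrsf1a-202, of 621 bases, had 2.32% ± 1.37 of the TPM in the first and 43.2% ± 2.51 in the second. Tnfrsf1b-202, of 375 bases, had 1.88% ± 3.26 in the first and 35.7% ± 16.4 in the second. For both receptors the second quantification gave the whole gene more than 2 times the TPM of the gene table, 2.52 times for Tnfrsf1a and 2.31 times for Tnfrsf1b, as it did for 29.6% of all genes compared. The ratio was 1.88 for Tnfrsf11a, 1.48 for Tnf and 1.204 for Tnfsf9, beside a median of 1.60.

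**Figure D3:**
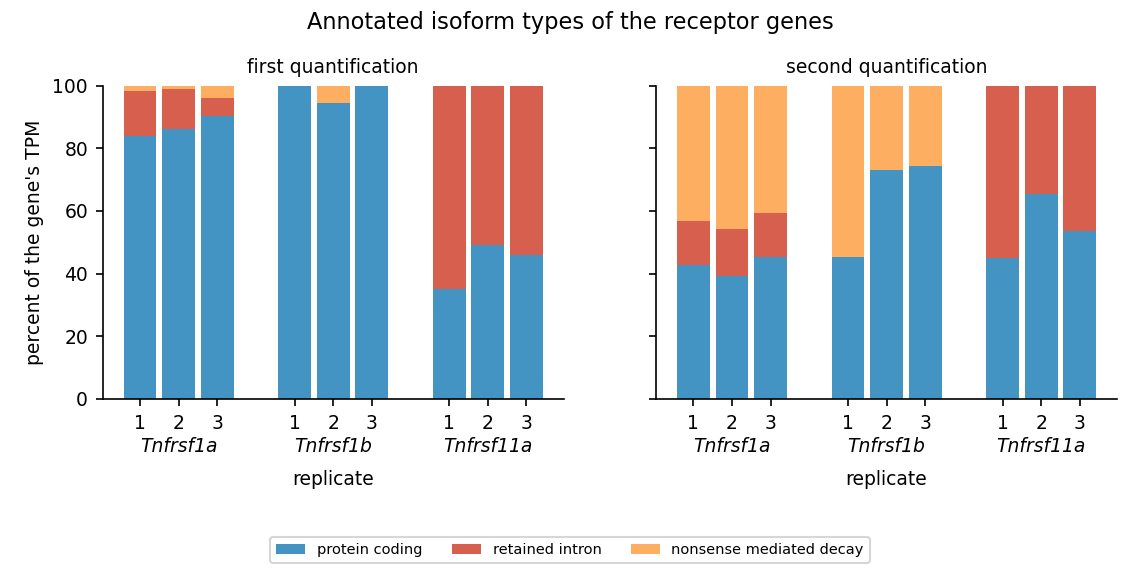
Percent of each receptor gene's TPM by annotated isoform type, 1 bar per library, in the first (left) and the second quantification (right). Retained-intron isoforms took 56.6% of Tnfrsf11a on average in the first and 45.4% in the second, and decay isoforms of Tnfrsf1a and Tnfrsf1b took a visible share mainly in the second.

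Of 13 other ligands of the family, 2 reached 1 TPM in each library, against 42.4% of all protein-coding genes. The list median was 0.07 TPM, beside 0.567 TPM over all protein-coding genes. The 2 ligands were Tnfsf13 (APRIL, a B cell factor) at 14.4 ± 3.47 TPM and Tnfsf12 (TWEAK) at 14.1 ± 3.89 TPM (SD, n = 3). Their counts are not whole numbers, so reads were divided among features, and both values are uncertain. Next came Tnfsf10 (TRAIL) at 0.51 TPM. Tnfsf4, Cd40lg, Fasl and Cd70, ligands known best from lymphocytes and activated antigen-presenting cells, had 0 counts in each library. Of the summed TPM of all 18 ligand genes, Tnf made up 68.4%, 48.7% and 51.2% in replicates 1, 2 and 3.

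Of 25 other receptors, 11 reached 1 TPM in each library, a share near the 42.4% of all protein-coding genes. In the second quantification 15 of the 25 did so. The list median in the gene table was 0.913 TPM. The highest were Tnfrsf14 (HVEM, the receptor of LIGHT) at 28.2 ± 8.29 TPM, Ltbr at 6.67 ± 2.47 TPM and Tnfrsf21 (death receptor 6) at 6.11 ± 1.22 TPM (SD, n = 3). Ltbr, the receptor of the lymphotoxin complex, was thus present while both lymphotoxin genes were at the floor, and the second quantification gave it 29.2 TPM. Tnfrsf9, the receptor of the Tnfsf9 product, had 0 counts in each library, as had Tnfrsf11b (osteoprotegerin, the decoy receptor of RANK ligand), Tnfrsf13c (the BAFF receptor), Tnfrsf19 and Edar. The second quantification gave Tnfrsf9 0.88 TPM and Tnfrsf13c 5.86 TPM on average, so a 0 in the gene table did not hold for both tables. Of the summed TPM of 28 receptor genes, Tnfrsf11a made up 19.7% ± 0.427, Tnfrsf1b 17.7% ± 0.670 and Tnfrsf1a 10.01% ± 2.39 (SD, n = 3).

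**Figure D4:**
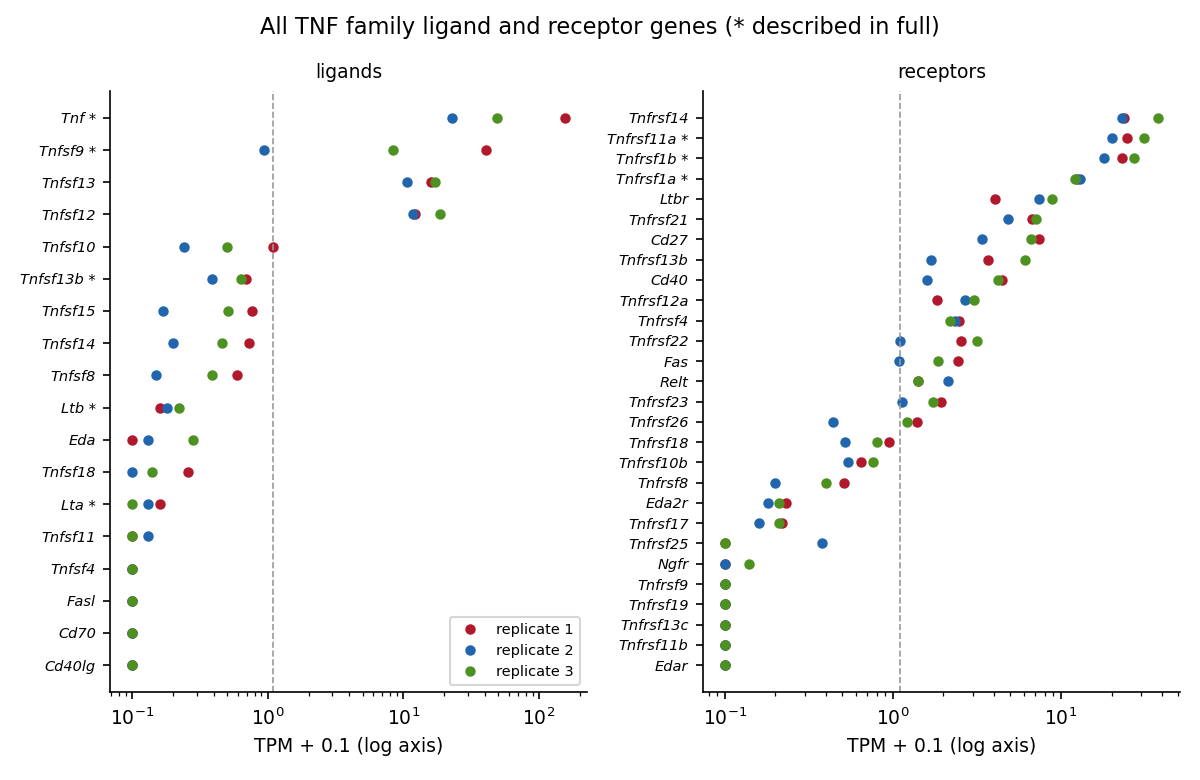
TPM + 0.1 (log axis) of all 18 ligand genes and 28 receptor genes, 1 point per library, ordered by mean, with a dashed line at 1 TPM; the 8 genes described in full carry an asterisk. Tnf was the highest ligand, and Tnfrsf14, Tnfrsf11a, Tnfrsf1b and Tnfrsf1a were the 4 highest receptors.

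Downstream of the receptors, 27 of 28 signalling genes reached 1 TPM in each library, against 42.4% of all protein-coding genes. The list median was 17.5 TPM, beside 0.567 TPM over all protein-coding genes. In the gene table the highest was Tnfaip3 (A20, a ubiquitin-editing inhibitor of NF-kB) at 107 ± 87.1 TPM. Next came Cflar (cFLIP, an inhibitor of caspase-8) at 97.7 ± 55.7 TPM and Madd (an adaptor that binds the death domain of TNFR1) at 75.7 ± 8.70 TPM. Fadd, the death domain adaptor, missed the level at 0.39 TPM in replicate 2. Of the 27 genes with a mean of at least 1 TPM, 3 had replicate 1 at least 2 times the mean of the others, against 2.41% of the 10251 genes. They were Tnfaip3 (3.19 times), Birc3 (3.12 times) and Cflar (2.02 times). Birc3, which encodes a ubiquitin ligase of the receptor complex, lies outside the rule for naming genes and was chosen after its values were seen. In the second quantification Birc3 stood at 185 TPM on average, above Cflar at 117 TPM and Madd at 113 TPM. Tnfaip3, Birc3 and Cflar all had the order of Tnf, as had 29% of the 10251 genes. The way these 3 genes were picked already placed replicate 1 highest, so only the order of replicates 2 and 3 could vary. Tnfaip3 stood at 206, 41.6 and 73.8 TPM in replicates 1, 2 and 3, Cflar at 153.6, 42.2 and 97.3 TPM and Birc3 at 139, 26.5 and 54.5 TPM. Madd, at 75.3, 67.1 and 84.5 TPM, did not have that order.

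TNF is cut from the membrane by the protease encoded by Adam17, which needs the iRhom proteins encoded by Rhbdf1 and Rhbdf2 and their partner encoded by Frmd8. Of 5 genes of this group, 3 reached 1 TPM in each library, against 42.4% of all protein-coding genes, and the list median was 7.96 TPM. The 3 genes were Adam17 at 28.4 ± 8.11 TPM, Rhbdf2 at 17.7 ± 2.75 TPM and Frmd8 at 7.96 ± 1.95 TPM (SD, n = 3). Rescaled Adam17 differed 1.22 times between its highest and lowest library, beside 4.82 times for Tnf. Timp3, the inhibitor of the protease, had fewer than 11 counts in each library in the gene table, and 8.41 TPM on average in the second quantification.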

How the data were processed

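For each library 3 tables were used. The authors' gene table and first transcript table hold expected counts and TPM, per the file headers, and the transcript table the percent of a gene's TPM per isoform. The second transcript table, deposited by the authors, holds estimated counts and TPM and was summed per gene. The assembly was mm10 with GENCODE M21, per the text deposited with the tables. For the aligner, the counting programs, their versions and strand use, the entry is: not given in the sources used here.

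TPM was rescaled over 22028 protein-coding genes, and log2 values used a pseudocount of 1. The floor was 3 counts. Expected counts were rounded for TMM factors (edgeR 4.0.16) and size factors (DESeq2 1.42.0), both as alternatives in R 4.3.3. Python 3.11.15, pandas 2.3.3 and scipy 1.17.1 served for the remaining steps. The scaling, the difference of replicate 1 from the others and the search for like patterns were tested on simulated data. The motif search was checked on a made-up string, and the other steps had no such test. Depth was 10974934 to 21376404 expected counts per library, and intervals are exact 95% counting intervals. Named genes are the 8 genes, the genes of like pattern and genes of the family, signalling and shedding lists. Of each of these lists, the 3 highest by mean TPM and any at 0 counts in each library were named. Birc3, Fadd, Timp3, Rhbdf1, Tnfsf11, Cd40 and the antisense neighbours were named outside this rule. The cell type markers named are examples from their lists, and Adgre1 is not among the 3 highest macrophage markers. The 8 genes and the lists were chosen with earlier results of these data known. Alternatives changed the detection level, pseudocount, scaling, table and libraries, and comparisons of full-length isoforms were added after seeing the data.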

Additional observations from a re-analysis of the deposited data

How the results depend on the processing

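Over 25 results and their alternatives, 110 alternative values stayed within the spread between libraries, the counting interval or 1.5 times of a count, 33 moved and 5 changed sign. The number of the 8 genes detected was 4 and ran from 4 to 6 over the alternatives. The number of other family ligands and receptors detected was 13. It fell to 7 at a minimum of 2 TPM, rose to 17 in the second quantification, and ran from 13 to 15 with a library left out. The share of all protein-coding genes under these alternatives was not computed for either number. On the log2(TPM + 1) scale Tnf minus Lta was 5.79 and Tnf minus Ltb 5.71. A pseudocount of 0.1 gave 8.77 and 8.23, and counts without length gave 9.87 and 9.00, since both neighbours are near 0. Leaving out a library gave 5.08 to 6.42 and 4.96 to 6.34. Tnf minus Tnfsf9 (2.67) ran from 2.17 to 3.05 that way. Tnfrsf1b minus Tnfrsf1a was 0.80, with 2.07 for counts without length, 1.27 for full-length isoforms (added after seeing the data) and 0.65 to 0.98 with a library left out. It was 0.62 in the second quantification, with an SD of 0.70. Tnf in replicate 1 minus the others (1.99) ran from 1.74 to 2.23 that way.

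Tnfrsf11a minus Tnfrsf1b, 0.15, turned to -0.049 (SD 0.59) in the second quantification, through replicate 1, and -0.97 for full-length isoforms. Replicate 1 minus the others turned for Tnfrsf1b from -0.15 to 0.061 without rescaling and to 0.61 in the second quantification, and for Tnfrsf1a (-0.21), which ran from -0.54 without replicate 3, to 0.12 without replicate 2. For Tnfrsf11a it moved from -0.23 to -0.61, -0.63 and -0.66 with TMM, TMM without a filter and DESeq2 size factors. The cause was not tested. No retained-intron share of Tnfrsf1b was computed, because the annotation holds no such isoform. No paired analysis was possible because the libraries form 1 group. With 3 libraries and few counts for Lta, Ltb and Tnfsf13b, smaller differences were not detectable at this depth.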
